A study of Mus musculus with 20 samples.

Results

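The 8 genes described here belong to FGF signalling: the ligand gene Fgf4, the receptor genes Fgfr1 and Fgfr2, the feedback inhibitor genes Spry2, Spry4 and Dusp6, and Etv4 and Etv5, which encode ETS transcription factors switched on by the pathway. Chromatin accessibility was followed at the GATA6 binding regions around them, chosen by position alone as the regions whose midpoint lay within 100 kb of the gene's start in the GENCODE vM21 annotation of mm10. This gave 75 of the 42403 regions in the table, with 5 regions at Fgf4, 6 at Fgfr1, 9 at Fgfr2, 11 at Spry2, 16 at Spry4, 9 at Dusp6, 7 at Etv4 and 12 at Etv5.

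The study drove mouse embryonic stem (ES) cells towards primitive endoderm (PrE) by inducing the transcription factor GATA6, and measured accessibility by ATAC-seq, in which a transposase cuts open DNA. The ES cells were of the line KH2 (C57BL/6 x 129/Sv) with a doxycycline-inducible Gata6 cassette, grown with LIF on mouse embryonic fibroblast feeders that were depleted before the assay. There were 3 samples without doxycycline (d0), 3 each at 8 h (8h), 16 h (16h), day 1 (d1) and day 2 (d2) of 1 ug/mL doxycycline, 2 at day 4 (d4), and 3 of wild-type, untreated XEN cells, an extra-embryonic endoderm line (X10, CD1) grown without LIF. The times are those of the sample titles, while the treatment labels give 16 h of doxycycline for the group titled 8 h, 24 h for 16 h, 48 h for day 1 and 72 h for day 2. GATA6 was induced from a transgene in every induced group, and the paper reports that the endogenous Gata6 gene was quickly activated as well. XEN cells differ from the induced cells in genotype and medium as well as in cell type. The methods name independent clones of the inducible line, and the labels do not say which sample came from which.

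FGF4 is the main FGF of pluripotent cells. It binds FGFR1 and FGFR2, which signal through RAS and the kinase ERK, and in the blastocyst this signal drives cells of the inner cell mass to PrE. Sprouty proteins (Spry2, Spry4) restrain signalling from the receptors to ERK, DUSP6 removes the activating phosphates from ERK, and ETV4 and ETV5 carry the signal to target genes, so transcripts of these genes are widely used as readouts of the pathway.

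Accessibility is given as reads scaled to library size (RPM, the deposited unit), not divided by region width, so levels are compared between samples of a region and not between regions. The deposited value of each region and group is the authors' average over its libraries, and changes between averages are on the log2(RPM + 0.03) scale. At 24753 regions the averages held enough digits to recover the whole reads of single libraries, 3 each at 8h, 16h, d1 and d2, 2 at d4 and 2 of XEN cells, where the labels list 3 samples, but none at d0, so tests used 8h as the baseline. The recovered set held 36 of the 75 regions, all those of Fgf4, Fgfr1, Fgfr2, Dusp6 and Etv4 and none of Spry2, Spry4 and Etv5. Library sizes were 181 to 288 M reads, except for 1 XEN library of 43.3 M. Reads in the recovered regions summed to 2794, 5140.5 and 3786 RPM in the 3 libraries at 8h, a spread that enters every comparison with that group. The sums were 8779, 9757 and 6847 RPM at d2 and 6533 and 6208 at d4, all above those at 8h. Orders of libraries on the RPM scale below include this difference. In bulk cells, lower accessibility in every cell and loss of accessibility in part of the cells cannot be told apart.

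Some gene starts need care. The vM21 start of Fgfr2 (chr7:133123350, minus strand) comes from 1 of its 27 transcripts, which begins inside Ctbp2 some 2.86 Mb upstream of the RefSeq start at chr7:130266808. The 9 regions that the rule assigns to Fgfr2 therefore surround Ctbp2, which encodes a transcriptional corepressor. The 9 regions within 100 kb of the RefSeq start, called the main Fgfr2 start below, are given beside them and outside the 75. The vM21 start of Fgf4 (chr7:144847367, plus strand) lies 14 kb upstream of its RefSeq start, and none of its 5 regions had Fgf4 as the nearest gene start. That of Fgfr1 lies 5.1 kb upstream of its RefSeq start at chr8:25518759. The region 1.5 kb downstream of the vM21 start of Fgfr1 is therefore upstream of the RefSeq start. Further starts are chr8:25513654 for Fgfr1 (plus strand), chr14:105896819 for Spry2 (minus), chr10:99263231 for Dusp6 (plus), chr11:101785371 for Etv4 (minus) and chr16:22439719 for Etv5 (minus). The member was the nearest protein-coding gene start for 11 of 11 Spry2 regions, 9 of 9 Dusp6 regions and 12 of 12 Etv5 regions, but for 2 of 7 Etv4 regions, 4 of 6 Fgfr1 regions and 11 of 16 Spry4 regions. For Fgfr2 it was nearest at 7 of 9 regions, counted from the vM21 start inside Ctbp2. Of the 75 regions, 46 were intergenic, 25 intronic and 4 in untranslated exons.

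The DNA at the GATA6 motif is shown for the regions with the largest gain and the largest fall at d4 that the results below turn on, for most of the genes, and for the region nearest to Etv4. Capitals mark the 13 bases of the best match to the GATA6 matrix in the deposited table, read 5′ to 3′ on the strand of the match from the GRCm38 genome, with 14 bases of flank on each side. The best match is not always where GATA6 signal was highest. Its centre lay 984, 325, 499 and 819 bp from the summit of GATA6 signal at Fgf4, Spry2, Fgfr1 and the Etv5 fall. In the other lines it lay 2 to 150 bp away. The first 5 lines are gains and the other 6 are falls.
Fgf4, 9.3 kb upstream, chr7:144837487-144837527 (+): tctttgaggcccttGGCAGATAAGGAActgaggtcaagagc
Fgfr2 main start, 93.7 kb downstream, chr7:130173204-130173244 (-): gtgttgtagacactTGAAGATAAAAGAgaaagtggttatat
Spry2, 32.2 kb downstream, chr14:105864743-105864783 (-): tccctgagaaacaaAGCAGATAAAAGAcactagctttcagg
Etv4, 99.8 kb upstream, chr11:101885139-101885179 (+): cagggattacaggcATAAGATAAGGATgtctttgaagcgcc
Etv5, 65.5 kb downstream, chr16:22374083-22374123 (+): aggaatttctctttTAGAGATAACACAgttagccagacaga
Fgfr1, 82.9 kb upstream, chr8:25431180-25431220 (-): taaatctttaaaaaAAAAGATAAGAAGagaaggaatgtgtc
Fgfr2 vM21 start, 69.1 kb downstream, chr7:133054401-133054441 (-): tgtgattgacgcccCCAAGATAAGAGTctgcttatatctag
Dusp6, 22.6 kb downstream, chr10:99285860-99285900 (-): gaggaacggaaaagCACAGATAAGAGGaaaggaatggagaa
Etv4, 89.1 kb downstream, chr11:101696458-101696498 (-): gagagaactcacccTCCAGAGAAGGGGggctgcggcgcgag
Etv5, 27.1 kb downstream, chr16:22412240-22412280 (-): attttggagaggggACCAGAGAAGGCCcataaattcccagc
Etv4, 2.3 kb upstream, chr11:101787830-101787870 (-): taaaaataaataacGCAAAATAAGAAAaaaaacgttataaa
The 5 gains and the falls of Fgfr1, Fgfr2 and Dusp6 hold the letters AGATAA in the match, and the 2 falls of Etv4 and that of Etv5 do not. These lines are a selection: the largest gains at the vM21 start of Fgfr2 and at Dusp6, and the largest falls at the main start of Fgfr2 and at Spry2, lie in regions with no match in the table. Among matches not shown, those at the largest gain of Fgfr1, 64.9 kb downstream, and nearest to the starts of Fgfr1 and Etv5 hold AGATAA. Those at the largest fall of Fgf4, 92.7 kb downstream, and nearest to the start of Spry2 do not. No sequence of Spry4 is shown. Read on the strand of the match only, 45 of 70 best matches at the members (64.3%) and 22668 of 38052 in all regions (59.6%) hold these letters. A match to the GATA6 matrix was present in 93.3% of the member regions and 89.7% of all regions.

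The make-up of the regions around the FGF genes is given beside that of the whole table. GATA6 binding was transient, gained early and lost again, at 43 of 75 (57.3%, against 38.4% of all regions), early and kept at 19 of 75 (25.3%, against 28.0% of all regions), and late at 13 of 75 (17.3%, against 33.6% of all regions). The pluripotency transcription factors (PTF) OCT4, SOX2 or ESRRB were bound in ES cells at 25 of 75 (33.3%, against 20.8% of all regions), and newly bound after induction (ectopic PTF) at 2 of 75 (2.67%, against 16.6% of all regions). SOX17, a PrE factor, bound 27 of 75 (36.0%, against 44.5% of all regions). By the histone marks of ES cells, active enhancers made up 20 of 75 (26.7%, against 11.2% of all regions) and promoters 11 of 75 (14.7%, against 6.88% of all regions). The median level at d0 was 0.173 RPM, against 0.0777 RPM over all regions. The median width was 636 bp, against 525 bp, and RPM is not divided by width, so these levels are not directly comparable. Neighbouring regions of a gene are not independent, so these shares are descriptions.

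Accessibility around the FGF genes was highest at d2 and near its starting level at d4, where the table as a whole was still above d0. Summed over the 75 regions it was 21.6 RPM at d0, 21.6 at 8h, 24.1 at 16h, 28.5 at d1, 38.2 at d2, 23.3 at d4 and 20.5 in XEN cells. The sum was 1.77 times that of d0 at d2, 1.08 times at d4 and 0.951 times in XEN cells, against 2.19, 1.66 and 1.28 times for all regions. The median log2 change of the member regions was 0.51 at d2, -0.08 at d4 and -0.19 in XEN cells, beside 0.69, 0.52 and 0.40 over all regions. Among the 6 ES cell groups the highest value fell at d2 for 33 of 75 regions (44.0%, against 45% of all), at d1 for 20 (26.7% against 13.5%) and at d4 for 10 (13.3% against 28.0%).

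Between the averages of d0 and 8h or 16h, 0 member regions changed by more than 2-fold (of all regions 0% were higher and 0% lower at 8h, and 0.00236% higher and 0.00236% lower at 16h), and 1 was higher and 0 lower at d1 (4.55% and 0.00707% of all regions). At d2, 15 of 75 were more than 2-fold higher and 1 lower, where 36.8% and 1.41% of all regions were. At d4, 12 were higher (31% of all regions) and 10 lower (7.27%), and in XEN cells 11 were higher (27.7%) and 11 lower (8.83%). The column medians themselves were higher than at d0, by 0.83 at d2, 0.56 at d4 and 0.49 in XEN cells on the log2 scale. Relative to them, 2 member regions were more than 2-fold higher at d2 and 14 lower (13.1% and 13.9% of all regions), and 3 were higher and 27 lower at d4 (15.8% and 16.4%). In XEN cells 5 were higher and 22 lower relative to the median (14.4% and 17.8%). On either scale more member regions were past 2-fold lower at d4 than at d2.

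**Figure D1:**
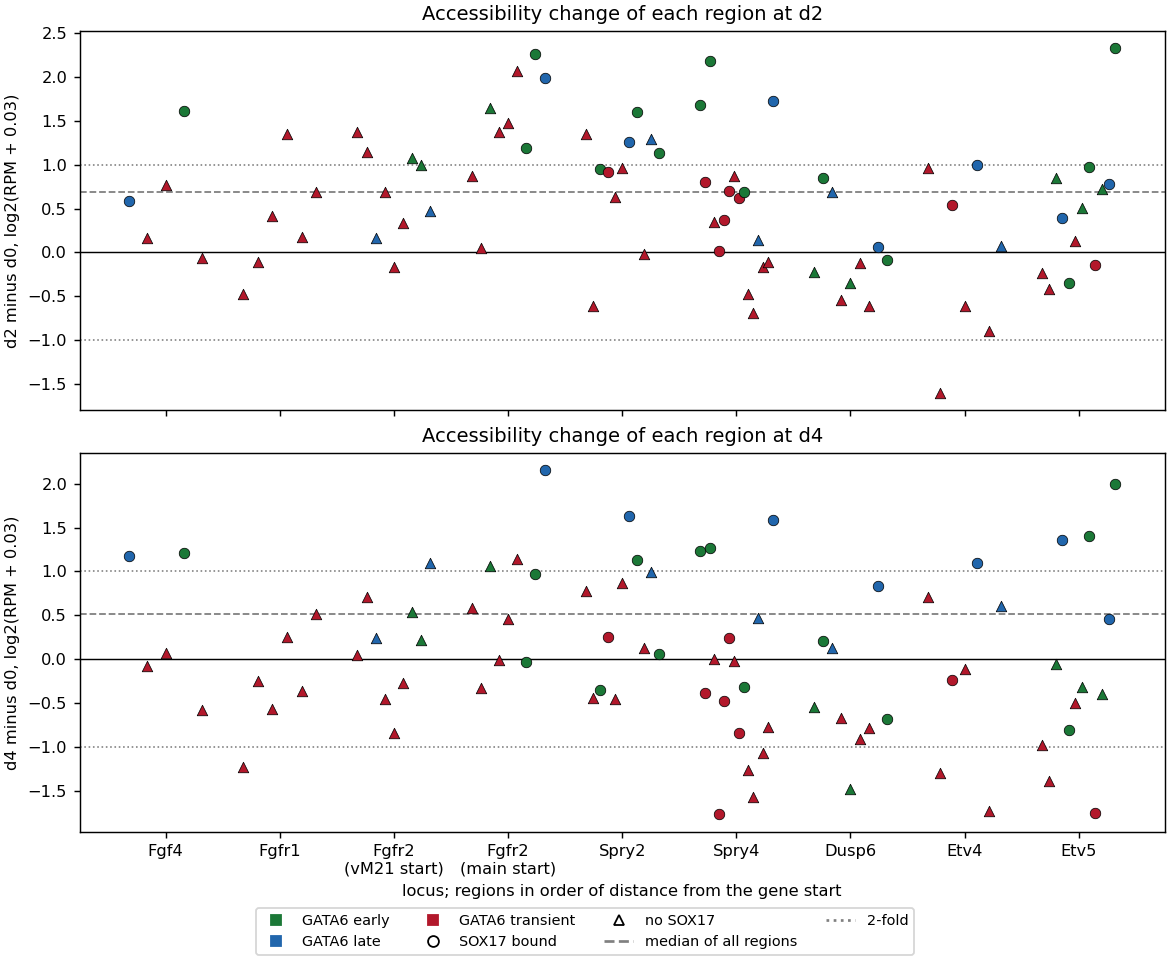
Change in accessibility of each region from d0 to d2 (top) and to d4 (bottom), on the log2(RPM + 0.03) scale, by locus; each point is 1 region, coloured by GATA6 binding class (early green, late blue, transient red) and shaped by SOX17 binding, with the median of all regions dashed and 2-fold dotted. Late regions of the 8 genes lie above 0 at d4, and all points more than 2-fold down at d4 but 1 are transient.

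The regions that were higher at d4 and those that were lower differed in their GATA6 binding class. All 13 late regions were higher at d4 than at d0, with a median change of 0.99 (1.0 over all late regions of the table, 95.5% of which were higher). Of the 43 transient regions 31 were lower, with a median of -0.45 (-0.22 over all transient regions, 63.1% of which were lower). The 19 early regions were divided, with 10 higher and 9 lower and a median of 0.06, beside 0.89 over all early regions, 87.1% of which were higher. Among the 25 regions bound by PTF in ES cells, 18 were lower at d4 (median -0.39, against -0.44 over all such regions, 64.6% of which were lower). The 12 regions with SOX17 and without PTF in ES cells had a median of 1.22 at d4 (all such regions 1.34), and 9 of the 12 exceeded 2-fold, as did 67.0% of all such regions. The 15 regions with both SOX17 and PTF in ES cells had a median of -0.32, where all such regions had 0.29.

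Tested on single libraries, a region was called where limma's adjusted p (Benjamini-Hochberg over 24753 regions) was under 0.05 and the change against 8h over 2-fold. At 16h and d1, 0 of the 36 recovered member regions were called by limma, with 0 and 2 at an unadjusted p under 0.05 (of all regions 0.00404% were called higher and 0.00404% lower at 16h, and 5.45% and 0.0162% at d1). At d2, 7 were higher and 2 lower, where 36.9% and 1.15% of all regions were called, and at d4, 3 were higher and 5 lower (30.5% and 6.59%). Without the rule's Fgfr2 regions, which surround Ctbp2, 3 of 27 were higher and 2 lower at d2, and 2 higher and 4 lower at d4. From d2 to d4, 0 were higher and 3 lower (2% and 8.73%), with 10 of the 36 at an unadjusted p under 0.05 (limma). With each library centred on its median, 0 were higher and 11 lower at d2 (14% and 13.6% of all), and 0 higher and 12 lower at d4 (16.2% and 15.6%), with 21 and 21 of the 36 at an unadjusted p under 0.05 (limma). From d2 to d4 the centred libraries gave 1 higher and 1 lower (5.36% and 4.61%). After quantile normalisation 0 were higher and 8 lower at d2 (12% and 10.8% of all), and 0 and 15 at d4 (16.8% and 16.4%), while at 16h 0 were called higher and 0 lower (0.44% and 0.343%), with 3 at an unadjusted p under 0.05 (limma). All 5 regions called lower at d4 on the RPM scale were also called lower on the centred scale. Regions described below other than the nearest to the start, the largest gain and the largest fall at d4 of each gene were singled out after their values were seen. The largest gain and the largest fall were themselves picked by their d4 averages. The same d4 libraries enter their tests, so their d4 changes and library orders are extremes by selection. The largest gain was taken among regions with a mean of at least 0.1 RPM over the groups.

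Fgf4 encodes the ligand, and its 5 regions lay closer to its neighbours. Their summed level was 1.08 RPM at d0, 2.40 at d2, 1.93 at d4 and 1.77 in XEN cells. The region nearest to the start, also the largest gain, lay 9.3 kb upstream (chr7:144837431-144838758) in an untranslated exon of Fgf3, another FGF ligand gene, 11 bp from its start, and bound GATA6 early together with SOX17. It measured 0.525 RPM at d0, then 0.408, 0.818 and 0.558 RPM in the libraries at 8h, 1.75, 2.09 and 1.15 at d2, 1.27 and 1.24 at d4, and 0.646 and 0.763 in XEN cells. Every d2 and d4 library was above every 8h library. The change against 8h was 1.45 ± 0.36 (SE) at d2 and 1.09 ± 0.40 at d4, with adjusted p of 0.00021 and 0.017 (limma). Relative to the library medians it was 0.67 ± 0.22 and 0.57 ± 0.25, under 2-fold, with adjusted p of 0.0076 and 0.045 (limma). The call at d4 was lost without 1 of the 8h libraries or either d4 library, with a change of 0.87 at the lowest. The largest fall, 92.7 kb downstream (chr7:144939847-144940225) beside the start of Ccnd1, the cyclin D1 gene, went from 0.216 RPM at d0 to 0.135 at d4, a difference of -0.40 ± 0.38 against 8h that did not pass the test (adjusted p = 0.4, limma). A late SOX17 region in an intron of Ano1, a chloride channel gene, 99.4 kb upstream, stood at 0.132 RPM at d0, 0.337 at d4 and 0.680 in XEN cells. Its libraries held 17, 56 and 62 reads at 8h, 64 and 66 at d4, and 28 and 206 in XEN cells. On the RPM scale limma did not call it at d4 against 8h or from d4 to XEN cells.

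Fgfr1 encodes an FGF receptor already present on ES cells. All 6 of its regions were transient GATA6 sites without SOX17 or PTF, with a summed level of 1.17 RPM at d0, 1.90 at d2, 0.960 at d4 and 1.10 in XEN cells. The largest fall lay 82.9 kb upstream (chr8:25430225-25431214), in intergenic DNA marked as a poised enhancer in ES cells. It held 0.432, 0.625 and 0.445 RPM at 8h, 0.266, 0.210 and 0.284 at d2, 0.160 and 0.116 at d4, and 0.30 and 0.239 in XEN cells. All d2 and d4 libraries lay below the 8h libraries, and both XEN libraries lay above both d4 libraries, a difference of 0.84 ± 0.43 that did not pass the test (adjusted p = 0.16, limma). The fall to d4 was -1.65 ± 0.39 against 8h (adjusted p = 0.00013) and -2.18 ± 0.26 relative to the medians (adjusted p = 1.1e-12, limma), and on the RPM scale it was called with any single library left out. Nearest to the start, the region 1.5 kb downstream in an intron (chr8:25514829-25515576), rose from 0.347, 0.630 and 0.445 RPM at 8h to 1.20, 1.41 and 0.621 at d2 and stood at 0.588 and 0.382 at d4. Its d2 value was 1.10 ± 0.36 above 8h (adjusted p = 0.0055), a call lost without 1 of the 8h libraries or either of 2 d2 libraries, and 0.31 ± 0.23 relative to the medians (adjusted p = 0.24, limma). The largest gain at d4, 64.9 kb downstream (chr8:25578432-25578768) in an untranslated exon of Letm2, was 0.51 ± 0.37 and not called (adjusted p = 0.25, limma). An intronic region 45.6 kb downstream (chr8:25559059-25559456) held 0.0374 and 0.0251 RPM at d4 and 0.208 and 0.104 in XEN cells, a difference of 1.55 ± 0.38 (adjusted p = 0.001, limma) that was lost without the smaller XEN library. These values rest on 7 and 5 reads at d4 and on 9 and 30 in XEN cells.

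Fgfr2 encodes the receptor whose transcripts mark PrE. The 9 regions around the main start summed to 1.47 RPM at d0, 1.39 at 8h, 1.97 at 16h, 2.75 at d1, 4.77 at d2, 2.44 at d4 and 1.06 in XEN cells, and their median log2 change from d0 was 1.48 at d2, 0.58 at d4 and -0.14 in XEN cells. By library the sums were 1.05, 1.87 and 1.25 RPM at 8h, 4.84, 5.22 and 4.27 at d2, 2.51 and 2.37 at d4, and 1.04 and 1.07 in XEN cells. The d2 and d4 sums lay above all 8h sums, and the XEN sums did not. Called higher against 8h were 3 of the 9 at d1 (5.45% of all regions), 7 at d2 (36.9%) and 4 at d4 (30.5%), and on the centred scale 1, 4 and 1 (1.37%, 14% and 16.2%). With 1 library left out at a time on the RPM scale, limma called 0 to 4 of the 9 higher at d1, 7 at d2 and 1 to 4 at d4. The count at d1 was 0 without 8h a or d1 b and 1 without 8h c, d1 a, d4 a or d4 b, and that at d4 was 1 without d4 b, where letters name the recovered libraries. From d4 to XEN cells 3 of the 9 were called lower on the RPM scale and 3 on the centred scale (12% and 12.9% of all regions, limma). On the RPM scale that count was 0 without d4 a, 1 without d4 b or XEN a, and 0 to 4 over the 16 fits.

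The largest gain at the main Fgfr2 start was a late SOX17 region in an intron 93.7 kb downstream (chr7:130172694-130173510). It rose from 0.0332, 0.0752 and 0.0656 RPM at 8h to 0.247, 0.367 and 0.328 at d2 and 0.385 and 0.327 at d4, and stood at 0.162 and 0.163 in XEN cells. The change was 1.98 ± 0.33 at d2 and 2.16 ± 0.37 at d4 (adjusted p of 2.9e-08 and 1.2e-07), and 1.20 ± 0.26 and 1.64 ± 0.29 relative to the medians (limma). Both calls on the RPM scale held with any single library left out. An early region with ectopic PTF and SOX17 73.8 kb downstream (chr7:130192439-130193603) held 0.190, 0.40 and 0.258 RPM at 8h, 1.53, 1.75 and 1.34 at d2, 0.684 and 0.543 at d4 and 0.139 and 0.173 in XEN cells. Its d2 libraries were all above its d4 libraries, and these above the 8h and XEN libraries. The change from 8h to d2 was 2.38 ± 0.35, from d2 to d4 -1.29 ± 0.40 and from d4 to XEN cells -1.79 ± 0.43, with adjusted p of 3.3e-10, 0.019 and 0.00093 (limma). The fall from d2 to d4 was lost without either of 2 d2 libraries or either d4 library, and that to XEN cells without 1 d4 library. Along with the regions 71.8 and 11.4 kb downstream it was among 3 of the 9 at which GATA6 binding decreased after Oct4 knockdown in the study's classification, against 4 of the 75 rule members and 6.25% of all regions. The region nearest to the main start, 2.0 kb downstream (chr7:130264463-130265154), was also its largest fall, from 0.315 RPM at d0 to 0.244 at d4, and held 0.0693 and 0.128 RPM in the XEN libraries against 0.262 and 0.226 at d4. That last difference was -1.13 ± 0.42 (adjusted p = 0.044, limma) and was called in 8 of the 16 fits that leave out 1 library.

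The 9 regions at the vM21 start of Fgfr2, around Ctbp2, summed to 2.06 RPM at d0, 3.94 at d2, 2.48 at d4 and 1.42 in XEN cells. The region at that start, in an untranslated exon of Ctbp2 (chr7:133123213-133123622), was the nearest and, among regions with a mean of at least 0.1 RPM, the largest gain, with 0.256, 0.465 and 0.225 RPM at 8h, 0.813, 0.872 and 0.481 at d2 and 0.529 and 0.518 at d4. All its d2 and d4 libraries were above its 8h libraries. Its d2 value was 1.14 ± 0.35 above 8h (adjusted p = 0.0034), lost without 1 8h or 1 d2 library, and 0.36 ± 0.23 relative to the medians (adjusted p = 0.18, limma). The largest fall, in an intron of Ctbp2 69.1 kb downstream (chr7:133053905-133054629), went from 0.242, 0.324 and 0.173 RPM at 8h to 0.0908 and 0.10 at d4. The change was -1.10 ± 0.38 (adjusted p = 0.011), a call lost without 1 of the 8h libraries or either d4 library, and -1.63 ± 0.28 relative to the medians (limma). A late region in an untranslated exon of Ctbp2 99.7 kb downstream (chr7:133023459-133023847), with a mean under 0.1 RPM, held 0.0475, 0.0376 and 0.0656 RPM at 8h and 0.166 and 0.156 at d4. Both d4 libraries lay above the 8h libraries, a gain of 1.26 ± 0.36 (adjusted p = 0.0018) that was called with any single library left out and was 0.74 ± 0.30 relative to the medians (adjusted p = 0.033, limma).

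**Figure D2:**
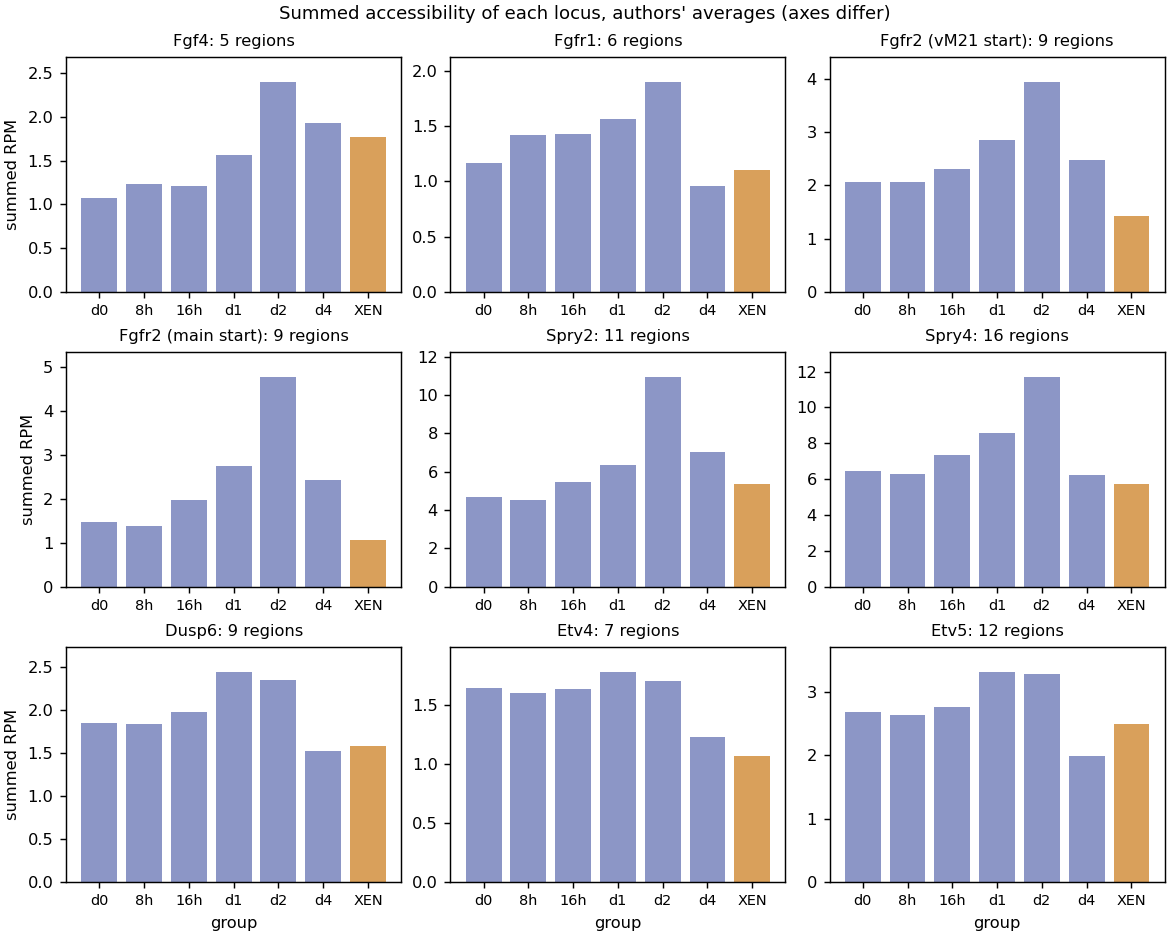
Summed accessibility in RPM of the regions of each locus in each group, from the authors' averages, with ES cells in blue and XEN cells in orange; each panel has its own axis from 0. The bars peak at d2 for Fgf4, Fgfr1, both Fgfr2 starts, Spry2 and Spry4 and at d1 for Dusp6, Etv4 and Etv5.

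Spry2 and Spry4, the Sprouty genes, had no recovered libraries, so their values are averages with no spread and no test. Spry2 summed to 4.67 RPM at d0, 10.9 at d2, 7.01 at d4 and 5.37 in XEN cells, with a median change of 0.25 at d4. Of that sum, an intergenic region 4046 bases long 36.1 kb downstream (chr14:105858663-105862708), an active ES cell enhancer bound early by GATA6 and by PTF and SOX17, held 1.44 RPM at d0, 4.42 at d2, 3.19 at d4 and 2.42 in XEN cells. Its neighbour 32.2 kb downstream (chr14:105864031-105865127), a late region with ectopic PTF and SOX17, was the largest gain, going from 0.181 RPM at d0 to 0.474 at d2, 0.622 at d4 and 0.542 in XEN cells. Nearest to the start, the region 0.9 kb upstream (chr14:105897281-105898233) stood at 1.02 RPM at d0, 1.96 at d2 and 1.22 at d4. The largest fall, 1.8 kb downstream in an intron of the gene (chr14:105894740-105895220), went from 0.412 RPM at d0 to 0.293 at d4 and 0.325 in XEN cells.

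Spry4, whose start is at chr18:38601415 (minus strand), combined gains and losses. It summed to 6.43 RPM at d0, 11.7 at d2, 6.23 at d4 and 5.72 in XEN cells, and its median change was -0.36 at d4. The largest fall of the 75 regions at d4 lay 35.0 kb upstream of it (chr18:38635742-38637091), a region with promoter marks, SOX17 and PTF. It held 0.917 RPM at d0, 1.05 at d1, 0.930 at d2, 0.248 at d4 and 0.284 in XEN cells, a change of 0.02 at d2 and -1.77 at d4. The largest gain, 98.2 kb downstream (chr18:38503037-38503482) and nearer to Ndfip1, went from 0.0616 RPM at d0 to 0.245 at d4 and 0.293 in XEN cells. An early region 68.3 kb upstream, nearer to Arhgap26, went from 0.739 RPM at d0 to 3.47 at d2 and held 1.83 at d4. The region nearest to the start, 0.4 kb upstream (chr18:38601315-38602338), stood at 1.07 RPM at d0, 1.76 at d2, 1.27 at d4 and 0.810 in XEN cells.

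Dusp6 encodes the ERK phosphatase. Its 9 regions summed to 1.85 RPM at d0, 2.44 at d1, 2.35 at d2, 1.52 at d4 and 1.58 in XEN cells, and the median change at d4, -0.67, was the lowest of the 8 genes. The region at the start, 0.2 kb upstream (chr10:99262846-99263283), was also the largest gain, with 0.593, 1.0 and 0.619 RPM at 8h, 1.32, 1.65 and 1.19 at d2, 0.962 and 0.794 at d4 and 0.485 and 0.749 in XEN cells. Its d2 libraries lay above the 8h libraries and its d4 libraries within their range. The change was 0.91 ± 0.36 at d2 (adjusted p = 0.025, under 2-fold) and 0.27 ± 0.40 at d4 (adjusted p = 0.6, limma). These changes are on the RPM scale, where the median change of all regions tested was 0.67 at d2 and 0.51 at d4. Between 21.7 and 30 kb downstream lay 6 regions in intergenic DNA, of which 5 were lower at d4 than at d0. The largest fall among them, 22.6 kb downstream (chr10:99285555-99286102), held 0.0949, 0.155 and 0.108 RPM at 8h, 0.0920, 0.0619 and 0.122 at d2, 0.0160 and 0.0352 at d4, and 0.115 and 0.0832 in XEN cells. The d4 values rest on 3 and 7 reads, and those at 8h on 20, 33 and 23. The difference from 8h to d4 was -1.43 ± 0.37 (adjusted p = 0.00047) and from d4 to XEN cells 1.23 ± 0.40 (adjusted p = 0.018), the second lost without 1 d4 library or the smaller XEN library (limma). The adjoining region 23.6 kb downstream, PTF-bound in ES cells, changed by -1.03 ± 0.39 at d4 (adjusted p = 0.021, limma), a call lost without 1 of the 8h libraries or either d4 library. The exception in this stretch, a late SOX17 region 29.2 kb downstream (chr10:99292235-99292728) whose mean was under 0.1 RPM, was 0.83 higher at d4 than at d0 in the averages and held 0.0748 and 0.106 RPM at d4 and 0.30 and 0.232 in XEN cells, 1.30 ± 0.38 higher (adjusted p = 0.0071, limma), a call lost without 1 d4 library or the smaller XEN library.

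Etv4 encodes an ETS factor. Its 7 regions summed to 1.64 RPM at d0, 1.78 at d1, 1.70 at d2, 1.23 at d4 and 1.07 in XEN cells. The region nearest to the start, 2.3 kb upstream (chr11:101787446-101787952), was an active enhancer of ES cells bound by PTF. It held 0.227 RPM at d0, then 0.0997, 0.197 and 0.192 RPM at 8h, 0.149, 0.227 and 0.195 at d1, 0.0726, 0.0524 and 0.0393 at d2, 0.0588 and 0.0904 at d4, and 0.0923 and 0.0624 in XEN cells. All d2 and d4 libraries lay below all libraries at 8h and d1. Its change of -1.60 in the averages from d0 to d2 was the 1 fall past 2-fold among the 75 regions at that time. Against 8h it was -1.16 ± 0.33 at d2 (adjusted p = 0.0015) and -0.86 ± 0.37 at d4 (adjusted p = 0.047, under 2-fold), and -1.94 ± 0.26 and -1.38 ± 0.29 relative to the medians (limma). The call at d2 held with any single library left out. The largest fall at d4, 89.1 kb downstream (chr11:101695834-101696674) and nearer to Arl4d, went from 0.318, 0.541 and 0.333 RPM at 8h to 0.223, 0.272 and 0.157 at d2 and 0.112 and 0.106 at d4, with 0.115 and 0.142 in XEN cells. All its d2 and d4 libraries were below its 8h libraries. The change at d4 was -1.58 ± 0.39 (adjusted p = 0.00022), called with any single library left out, and -2.11 ± 0.26 relative to the medians (limma). The intronic region 12.5 kb downstream held 0.527, 0.987 and 0.563 RPM at 8h, 1.11, 0.996 and 0.931 at d2, 0.673 and 0.487 at d4 and 0.277 and 0.371 in XEN cells. The largest gain among regions with a mean of at least 0.1 RPM, 99.8 kb upstream (chr11:101884974-101885463) in an intron of Meox1, a homeobox gene, was 0.77 ± 0.37 at d4 and not called (adjusted p = 0.08, limma). A late SOX17 region 55.8 kb downstream (chr11:101729311-101729780), with a mean under 0.1 RPM and nearer to Dhx8, held 0.0332, 0.0376 and 0.0516 RPM at 8h and 0.107 and 0.126 at d4. Both d4 libraries lay above the 8h libraries, and the gain of 1.05 ± 0.35 was called (adjusted p = 0.009), lost without 1 of the 8h libraries or 1 d4 library, and was 0.53 ± 0.31 relative to the medians (adjusted p = 0.15, limma).

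**Figure D3:**
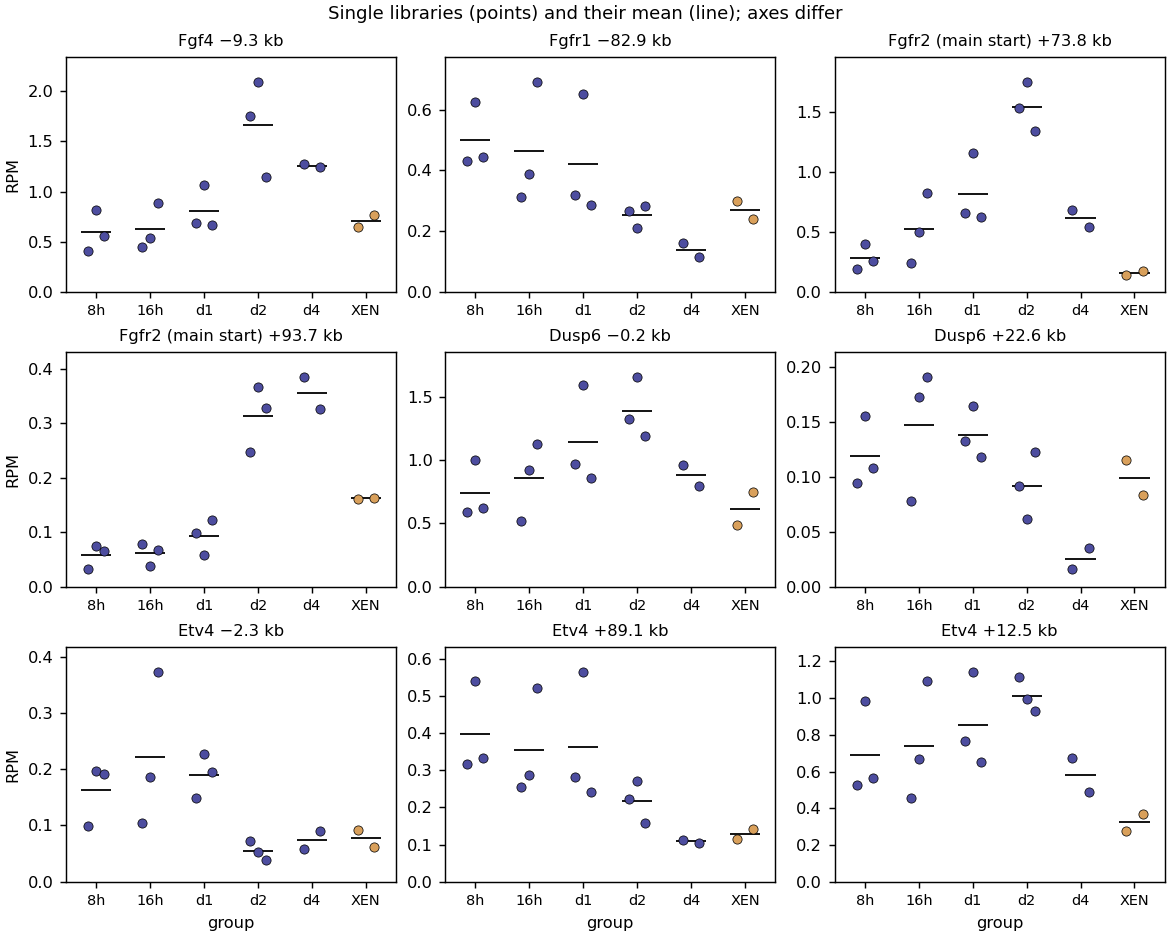
Accessibility in RPM of 9 regions of Fgf4, Fgfr1, Fgfr2, Dusp6 and Etv4 in single recovered libraries, by group; points are libraries, lines their mean, and each panel has its own axis from 0. The Fgfr1 region 82.9 kb upstream and the Etv4 regions 2.3 kb upstream and 89.1 kb downstream sit lower in every d4 library than in every 8h library, and the Fgfr2 region 73.8 kb downstream of the main start peaks at d2.

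Etv5, the other ETS factor gene, had no recovered libraries and so no test. It summed to 2.69 RPM at d0, 3.32 at d1, 3.30 at d2, 1.99 at d4 and 2.49 in XEN cells, with a median change of -0.36 at d4. Its largest gain, an early region with ectopic PTF and SOX17 65.5 kb downstream (chr16:22373895-22374486), stood at 0.0703 RPM at d0, 0.0774 at d1 and 0.474 at d2, and held 0.370 at d4 and 0.131 in XEN cells. That gain of 2.33 at d2 and 2.0 at d4 was the largest of the 75 regions at both times. Its largest fall, 27.1 kb downstream in an intron (chr16:22411701-22413492), bound by PTF and SOX17 and with promoter marks, held 0.877 RPM at d0, 0.792 at d2, 0.239 at d4 and 0.332 in XEN cells. The region nearest to the start, 2.5 kb upstream (chr16:22441948-22442583), went from 0.252 RPM at d0 to 0.192 at d2, 0.132 at d4 and 0.144 in XEN cells. A late SOX17 region 47.9 kb upstream, in an intron of Dgkg, a diacylglycerol kinase gene, went from 0.0779 RPM at d0 to 0.246 at d4 and 0.707 in XEN cells, a gain of 2.77 that was the largest of the 75 in XEN cells.

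**Figure D4:**
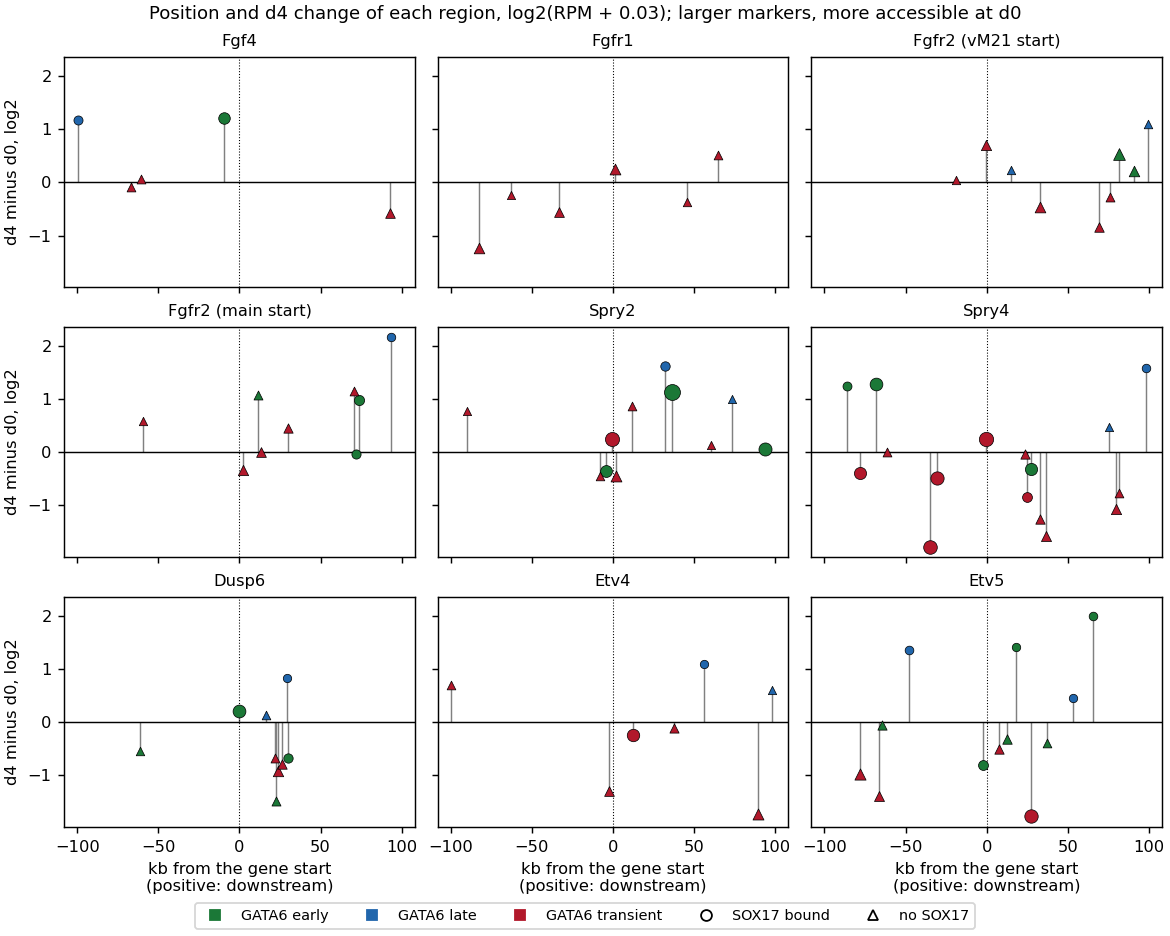
Change from d0 to d4 on the log2(RPM + 0.03) scale against the distance of each region from its gene start in kb, positive downstream; colour gives the GATA6 class, shape SOX17 binding, and larger markers mean more RPM at d0. Of the 6 Dusp6 regions between 21.7 and 30 kb downstream, 5 lie below 0, and Spry4 and Etv5 have points on both sides of 0.

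The regions nearest to the starts can be set side by side on the log2 scale of the averages. From d0 to d4 the changes were 0.25 at Fgfr1, 0.25 at Spry2, 0.24 at Spry4 and 0.21 at Dusp6, all under the median change of all regions. They were 0.70 at the vM21 start of Fgfr2 and -0.33 at its main start, -0.80 at Etv5, -1.30 at Etv4 and 1.21 at Fgf4.

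Summed by locus, the tests could not reach a p under 0.05. An exact two-sided permutation test of 3 libraries against 3 cannot go below 0.1, nor can one of 2 against 3. In log2 summed RPM, d2 minus 8h was 0.99, 0.42, 0.97, 1.82, 0.38 and 0.12 at Fgf4, Fgfr1, the vM21 and the main start of Fgfr2, Dusp6 and Etv4, with exact p of 0.1, 0.3, 0.1, 0.1, 0.3 and 0.7 and adjusted p of 0.4 or more over 12 tests. For d4 minus 8h the differences were 0.70, -0.55, 0.31, 0.85, -0.24 and -0.34, with exact p of 0.2, 0.4, 0.6, 0.2, 0.6 and 0.4 and adjusted p of 0.48 or more. As a share of the reads in all recovered regions, d2 minus 8h was -0.16, -0.72, -0.18, 0.67, -0.76 and -1.02 and d4 minus 8h -0.05, -1.30, -0.44, 0.10, -0.99 and -1.09 in the same order. On that scale exact p was 0.1 or 0.2 at d2 and 0.2 or 0.6 at d4, with adjusted p of 0.218 or more (permutation test). Of these 6 loci, the main start of Fgfr2 was the 1 that was higher on both scales at both times. Its share difference at d4 was 0.10, and this locus was added after seeing the data.

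The loci most like each other were compared by the root mean square difference of their log2 change in summed RPM over the 6 comparisons with d0, among 55 members and pathway genes with 5 or more regions. Dusp6 was nearest to Etv5 (0.10) and Ier2 (0.11), and Etv5 to Dusp6 (0.10) and Ier2 (0.15). Etv4 was nearest to Sos1 (0.20) and Dusp6 (0.24), and Fgfr1 to Spry4 (0.18) and Ier2 (0.19). Spry2 was nearest to Phlda1 (0.16) and Il17rd (0.18), Fgf4 to Egr1 (0.15) and Fos (0.16), the vM21 start of Fgfr2 to Spred3 (0.05) and Map2k1 (0.07), and its main start to Egr2 (0.17) and Shc1 (0.25).

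Of 69 further ligand, receptor, adaptor, kinase, feedback and target genes of the pathway, 64 had a region within 100 kb, with 477 regions in all, 5 of them shared with the members. At d4, 130 of the 477 were more than 2-fold higher and 30 lower (27.3% and 6.29%), where 31% and 7.27% of all regions were. The receptors and co-receptors had 15 of 36 regions higher and 0 lower, the ligands 18 of 61 and 2, and the adaptors 27 of 77 and 3. The kinase cascade had 22 of 88 higher and 8 lower, the feedback genes 19 of 106 and 5, and the targets 30 of 113 and 13. Among genes with 5 or more regions, the highest median changes at d4 were 1.20 at Fgfr3, a receptor gene, 1.05 at Frs2, the adaptor that docks on FGF receptors, and 1.02 at Egr1, an immediate early target of ERK. The lowest were -1.20 at Myc, a growth factor target, -0.56 at Etv1, a relative of Etv4 and Etv5, and -0.49 at Sos1, the RAS exchange factor.

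The labels of the cells were checked on regions within 100 kb of marker genes. Those of 10 PrE and XEN cell genes (158 regions) summed to 27.5 RPM at d0, 90.8 at d4 and 57.5 in XEN cells. At d4, 112 were more than 2-fold higher and 1 lower (70.9% and 0.633%), where 31% and 7.27% of all regions were. Those of 9 ES cell genes (109 regions) summed to 38.2 RPM at d0, 41.5 at d4 and 25.8 in XEN cells, with 20 higher and 20 lower at d4 (18.3% and 18.3%). Regions of feeder fibroblast genes, found at 9 of 10 genes and not at Twist2, numbered 29 and summed to 3.61 RPM at d0, 6.63 at d2, 4.98 at d4 and 4.92 in XEN cells, with 5 higher and 2 lower at d4 (17.2% and 6.90%). Over all regions the sum at d4 was 1.66 times that at d0. Relative to the column medians, the median change at d4 was 0.82 for the PrE and XEN cell genes, -0.53 for the ES cell genes and -0.24 for the feeder genes. The part of feeder cells in the changes at the FGF loci was not tested.

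From d4 to XEN cells, 3 of the 36 recovered member regions were higher and 1 lower by limma, where 5.55% and 12% of all regions were called. With centred libraries 4 were higher and 1 lower (6.71% and 12.9%). The rises on the RPM scale were the Fgfr1 intronic region 45.6 kb downstream and the Dusp6 regions 22.6 and 29.2 kb downstream. The fall was the region 81.9 kb downstream of the vM21 start of Fgfr2, from 0.871 and 0.784 RPM at d4 to 0.392 and 0.281 in XEN cells, a call lost without any 1 of these 4 libraries. The lines also differ in genotype and medium, which cannot be told apart from the difference in cell type.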

How the data were processed

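ATAC-seq reads of 20 samples in 7 groups were, per the study's methods and the submitters' processing notes, trimmed with cutadapt, aligned with Bowtie2 to mm10, filtered for duplicates and mapping quality with SAMtools, shifted for transposase cuts, and counted as short fragments per GATA6 peak with bamsignals; versions are not given in the sources used here. The deposited values are in RPM, averaged by the authors over the libraries of each group. The deposited motif scores are the best FIMO match per region. Classes of GATA6, PTF and SOX17 binding, d0 accessibility, ES cell chromatin and response to Oct4 knockdown are the authors'. The 52 columns of other assays were not used.

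The average of a group is a sum of whole reads times the worth of 1 read in each library, so libraries were recovered at the 24753 regions where every column held more than 12 digits. All of these regions were decoded at every group but d0. The decoding allows no count below 1 read per library, and whether the counts hold an added read was not tested. Libraries carry letters here, since nothing ties them to sample numbers. By the methods each ATAC sample was a separate cell culture. The steps were tested on simulated data.

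limma 3.58.1 (R 4.3.3) was fitted with trend to log2(RPM + 0.03) of all 16 libraries, with Benjamini-Hochberg adjustment over all regions; a call needs an adjusted p under 0.05 and a change over 1 on the log2 scale. Values relative to the median use libraries or columns centred on their median. Named regions are the nearest to the gene start, the largest gain and the largest fall at d4 among regions with a mean of at least 0.1 RPM; pathway genes are named with the 3 highest or lowest d4 medians. Members and lists were chosen with earlier results of these data known. Motif coordinates were checked against the genome: GAT stood at position 5 of the match on both strands in 86.9% of 38052 matches. Python 3.11.15, numpy 2.4.6, scipy 1.17.1 and pandas 2.3.3 were used. Alternatives covered the pseudocount (0.006 and 0.15 RPM), centring, quantile normalisation, low values, windows of 50 and 200 kb, the nearest gene, the threshold, the column minimum and single libraries; RefSeq starts, leaving out Fgfr2, and locus shares were added after seeing the data. The precision of a value is limited by its reads, 1 read being worth 0.00347 to 0.00552 RPM outside the smaller XEN library. The loci most like Spry4 are not reported here.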

Additional observations from a re-analysis of the deposited data

How the results depend on the processing

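No paired analysis was possible because the libraries recovered from the averages carry no replicate number. Counts of member regions past 2-fold and calls by limma depended on the scaling, and the cause was not tested. Against d0 with a pseudocount of 0.006 RPM, 3 regions were higher at d1. With 0.15 RPM, 0 were higher at d1, 8 higher and 0 lower at d2, 5 and 3 at d4, and 6 and 5 in XEN cells. With columns centred on the median, 0 were higher at d1, 2 higher and 14 lower at d2, 3 and 27 at d4, and 5 and 22 in XEN cells, with median changes of -0.10, -0.32, -0.64 and -0.68. With quantile normalisation these were 0 at d1, 2 and 18 at d2, 1 and 28 at d4, and 20 lower in XEN cells, with medians of -0.10, -0.34, -0.64 and -0.52. Past 1.5-fold, 1 was higher at 16h, 13 at d1, 36 higher and 6 lower at d2, 19 and 19 at d4, and 17 and 18 in XEN cells. Other sets of regions gave, within 50 kb (41 regions), 0 higher at d1, 6 at d2, 5 higher and 6 lower at d4, and 4 higher in XEN cells. Within 200 kb (120 regions) they gave 3 higher at d1, 34 higher and 2 lower at d2, 25 higher at d4 and 26 in XEN cells. Where the member was the nearest gene start (56 regions), 0, 9, 5 and 4 were higher at d1, d2, d4 and in XEN cells. For these sets the shares of all regions are those given above for the averages. That set keeps 7 regions at the vM21 start of Fgfr2. With RefSeq starts 4 of 75 were higher at d1, and with a mean of at least 0.1 RPM 6 of 55 in XEN cells. The shares of all regions with the other pseudocounts, with quantile normalised averages and past 1.5-fold were not computed, so those counts stand without a background.

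The median change at d4 of Fgf4, Fgfr1, Fgfr2, Spry2, Spry4, Dusp6, Etv4 and Etv5 was -0.49, -0.87, -0.34, -0.31, -0.91, -1.22, -0.67 and -0.91 when centred. Quantile normalised, it was -0.49, -0.35, -0.13, -1.04, -1.19, -0.69 and -0.91 for the same genes without Fgfr1. It was -0.33 for Dusp6 with a pseudocount of 0.15 RPM, 1.21 for Fgf4 within 50 kb, 0.49, 0.21 and 0.38 for Fgf4, Spry4 and Etv4 within 200 kb, -0.77 and -0.77 for Spry4 and Etv4 by the nearest start, and 0.58 for Fgfr2 with its RefSeq start.

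Of limma's calls at d2, there were 1 higher and 0 lower of 36 with a pseudocount of 0.15 RPM (19.7% and 0.0646% of all regions). There were 0 and 11 centred, 0 and 8 quantile normalised, and 11 and 4 by adjusted p alone (11827 and 754 of all 24753 regions). Other sets gave 16 higher within 200 kb, 1 lower by the nearest start, 11 higher with RefSeq starts and 3 of 27 higher without Fgfr2. At d4 there were 0 and 2 with 0.15 RPM (13.9% and 1.96% of all regions), 0 and 12 centred, 0 and 15 quantile normalised, and 1 and 2 within 50 kb. Higher at d4 were 1 of 25 with a mean of at least 0.1 RPM (38.8% of all such regions), and 8, 0 and 7 within 200 kb, by the nearest start and with RefSeq starts. At d1, quantile normalisation gave 1 lower (0.513% of all regions) and RefSeq starts 3 higher (5.45%). From d2 to d4, 0 were lower with 0.15 RPM (2.90% of all regions), 1 higher and 1 lower centred, and 1, 6 and 1 lower quantile normalised (3.15%), within 200 kb and without Fgfr2. From d4 to XEN cells, 0 were higher with 0.15 RPM (0.816% of all regions) and 1 with a mean of at least 0.1 RPM (2.71% of such regions). Quantile normalised, 5 were higher and 0 lower (9.38% and 9.88% of all regions). Lower were 0, 2, 4 and 0 within 50 kb, within 200 kb, with RefSeq starts and without Fgfr2.

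With 1 library left out at a time, limma called 0 to 0 regions higher and 0 to 0 lower at 16h, 0 to 1 and 0 to 0 at d1, 4 to 9 and 1 to 2 at d2, 1 to 5 and 3 to 6 at d4, 0 to 0 and 0 to 4 from d2 to d4, and 0 to 3 and 0 to 1 from d4 to XEN cells. On the RPM scale a count moved by over 1.5 times without 8h a or d2 b (higher at d2), 8h b or d2 b or d2 c (lower at d2), 8h a or 8h c or d4 b (higher at d4), 8h b or d4 a or d4 b (lower at d4), d2 a or d4 a or d4 b (lower from d2 to d4), and d4 a or XEN a (higher in XEN cells) or any XEN or d4 library (lower in XEN cells), where letters name the recovered libraries. With centred libraries the ranges were 0 to 0 and 0 to 0, 0 to 0 and 0 to 1, 0 to 0 and 8 to 12, 0 to 0 and 10 to 12, 0 to 2 and 1 to 2, and 3 to 4 and 1 to 3 in the same order. The d2 minus 8h difference in log2 summed RPM ranged over 0.71 to 1.22, 0.23 to 0.62, 0.81 to 1.20, 1.64 to 2.05, 0.22 to 0.59 and -0.0556 to 0.35 at Fgf4, Fgfr1, the vM21 and main starts of Fgfr2, Dusp6 and Etv4, where Etv4 fell below 0 without 1 of the 8h libraries. For d4 minus 8h it ranged over 0.42 to 0.93, -0.76 to -0.34, 0.15 to 0.54, 0.67 to 1.09, -0.40 to -0.03 and -0.52 to -0.11. As a share of the reads in all recovered regions the sign turned for Fgf4 (-0.158 at d2 and -0.0489 at d4), Fgfr1 (-0.722 at d2), the vM21 start of Fgfr2 (-0.178 and -0.440), Dusp6 (-0.763 at d2) and Etv4 (-1.02 at d2). The Fgfr1 region 1.5 kb downstream was -0.0790 at d2 when quantile normalised. The RefSeq starts, the sets without Fgfr2, the centred fits without 1 library and the shares were chosen after seeing the data. In regions at the level of the Dusp6 region 22.6 kb downstream at d4, a value rests on a few reads.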
